A study of Homo sapiens with 9 samples.

Results

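Glutathione S-transferases join the tripeptide glutathione to reactive molecules, so that lipid peroxidation products, drugs and carcinogens become water-soluble and can leave the cell. The cytosolic enzymes are sorted into classes by sequence (alpha, mu, pi, omega and others), the kappa enzyme lies in mitochondria, and the microsomal enzymes are an unrelated family of membrane proteins with overlapping chemistry. Alpha-class enzymes are abundant in liver and small intestine and are also found in stomach, and the pi enzyme is the one best known from tumors.

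The expression of 10 transferase genes, namely GSTA1, GSTA2, GSTA4, GSTP1, GSTM3, GSTM4, GSTO1, GSTK1, MGST1 and MGST3, was analysed in AGS cells, a line long established from a human adenocarcinoma of the stomach. HIF-KD cells carried a lentiviral hairpin RNA against HIF-1α and Scrambled cells a lentiviral control hairpin, both stably expressed and both grown under normoxia, so a result could belong to this hairpin or to the selected cells as well as to HIF-1α. Each group had 3 biological replicates on Illumina BeadChips, which measure a transcript with bead-bound probes. Replicates 1 and 2 were on the HumanRef-8 version with 1 array per group, and replicate 3 was on the larger HumanHT-12 version with 3 HIF-KD and 2 Scrambled technical arrays. All values are background-corrected, quantile-normalized log2 signals, and 1 unit is a doubling. The array versions were normalized apart, so levels of replicate 3 are set beside those of replicates 1 and 2 only through the difference between HIF-KD and Scrambled. The genes were chosen by membership of the enzyme family, after it was known from these data that probes of GSTA1 and GSTA2 found on HumanHT-12 alone were lower in HIF-KD cells of replicate 3. The 10 genes had 14 probes among the 24525 that both versions share, and 5 more on HumanHT-12 alone (2 of GSTA1, 2 of GSTA2 and 1 of GSTO1).

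As a check of the labels, the HIF1A probe ILMN_1763260 read 6.35, 5.33 and 5.95 in HIF-KD cells of replicates 1, 2 and 3, against 9.02, 7.57 and 7.97 in Scrambled cells. The mean difference of -2.31 (limma SE 0.157, n = 3 per group, adjusted p = 0.00536) is a 4.96-fold lower signal. A probe was called detected on an array at a detection p-value under 0.01, which held for 46.1% to 55.6% of the probes on the HumanRef-8 arrays and 33.6% to 36.1% on the HumanHT-12 arrays. Of 7 epithelial markers measured, 6 were detected on all 9 arrays, and of 11 markers of other cell types 7 were detected on none, with APOA1 detected on all 9 and COL1A1 on 8.

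Of the 14 shared probes, 12 were detected on all 9 arrays. The GSTA2 probe was detected on all 5 HIF-KD arrays and on 3 of the 4 Scrambled arrays. The MGST1 probe ILMN_1687387 was detected on none and did not pass the filter on dim probes, which leaves 13 transferase probes among 14686 tested. No transferase probe passed limma's paired test at an adjusted p under 0.05, where 16 of all tested probes did (0.109%). At an unadjusted p under 0.05, 3 of the 13 were higher in HIF-KD cells (GSTM4 ILMN_1716979, GSTO1 and MGST1 ILMN_1803033), against 3.43% of all tested probes, and 0 were lower, against 3.89%. The groups of genes below are therefore given as measured values and not as changes.

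GSTA1 and GSTA2 are adjacent genes on chromosome 6, in the order GSTA2, GSTA1, GSTA5, GSTA3 and GSTA4 along the GRCh38.p14 assembly. They encode near-identical alpha-class subunits, which reduce lipid peroxides. The bases before their transcription starts are shown because both genes had the same pattern in the data. Any part of these bases in that pattern was not tested. In the 250 bases of GRCh38.p14 that end just before each RefSeq start (GSTA1 chr6:52803817-52804066 and GSTA2 chr6:52763476-52763725, both minus strand), 243 positions are identical (97.2%). Capitals mark the 7 positions that differ.
GSTA1: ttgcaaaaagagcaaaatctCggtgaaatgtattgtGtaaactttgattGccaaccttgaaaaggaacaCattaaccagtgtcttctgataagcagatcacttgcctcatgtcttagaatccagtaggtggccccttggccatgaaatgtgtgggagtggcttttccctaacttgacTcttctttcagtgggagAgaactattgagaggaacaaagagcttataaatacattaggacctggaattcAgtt
GSTA2: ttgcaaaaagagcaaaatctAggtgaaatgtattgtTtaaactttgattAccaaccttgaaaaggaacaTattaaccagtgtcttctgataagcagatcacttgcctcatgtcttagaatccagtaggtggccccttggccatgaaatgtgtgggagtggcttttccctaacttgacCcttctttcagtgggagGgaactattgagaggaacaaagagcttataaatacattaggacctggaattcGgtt
Neither stretch holds the core of a hypoxia response element in its A form (ACGTG, in 18.5% of 35116 RefSeq promoter windows of this length) or G form (GCGTG, 32.2%), or the core of an antioxidant response element (TGACNNNGC, 10.9%), searched on both strands. Because the genes are so alike, a probe of either one may also bind the transcripts of the other, and the probe sequences were not used here. The signals of GSTA1 and GSTA2 are therefore not separate evidence.

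GSTA1 and GSTA2 were lower in HIF-KD cells in replicate 3 only. The shared GSTA1 probe (ILMN_2113470) read 7.17, 8.80 and 8.93 in HIF-KD cells of replicates 1, 2 and 3, against 6.52, 8.71 and 9.92 in Scrambled cells. HIF-KD cells were above Scrambled cells by 0.65 and 0.09 in replicates 1 and 2, and the difference in replicate 3 was -0.99. The mean difference was -0.08 with a limma SE of 0.28 (n = 3 per group). The shared GSTA2 probe (ILMN_2168747) read 4.84, 6.35 and 6.45 in HIF-KD cells, against 4.37, 5.95 and 7.50 in Scrambled cells. Its differences were 0.46, 0.40 and -1.05, with a mean of -0.06 (limma SE 0.29). The sign of the difference in replicate 3 was opposite to that in the others under all 6 ways of scaling the arrays that were run.

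**Figure D1:**
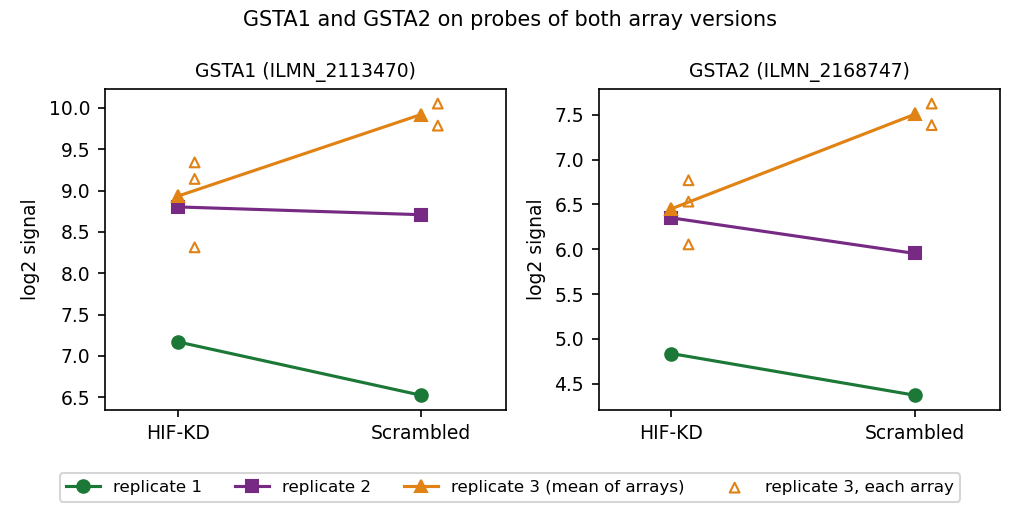
Log2 signal of the shared GSTA1 and GSTA2 probes (vertical axis) in HIF-KD and Scrambled cells (horizontal axis), with a line for each biological replicate and open triangles for the technical arrays of replicate 3. In replicate 3 GSTA1 reads 8.93 in HIF-KD cells and 9.92 in Scrambled cells, whereas HIF-KD lies above Scrambled in replicates 1 and 2.

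The spread over replicates was wide for both genes in either group. The 3 GSTA1 differences spanned 1.63, more than in 99.6% of the tested probes, and those of GSTA2 spanned 1.52, more than in 99.4%. The low end of both spans is the difference in replicate 3, which was known when the genes were chosen, so nothing is read from these ranks. Between replicates 2 and 1, which share the HumanRef-8 version, GSTA1 differed by 1.63 in HIF-KD cells and by 2.18 in Scrambled cells. This gap in Scrambled cells is 4.54-fold and exceeds that of 99.8% of the tested probes. The gap of GSTA2 was 1.51 in HIF-KD cells and 1.58 in Scrambled cells (98.5%). Its signal of 4.37 in Scrambled cells of replicate 1 was close to that of the undetected MGST1 probe (4.09 to 4.27), so this gap rests on a dim value. Both genes thus varied more between the Scrambled samples of replicates 1 and 2 than between HIF-KD and Scrambled cells within any replicate. The arrays of these replicates also differed before normalization. The median deposited log2 signal was 5.34 (HIF-KD) and 5.59 (Scrambled) in replicate 1, against 4.56 and 4.55 in replicate 2. The part of this in the gaps was not tested.

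The lower signal of GSTA1 and GSTA2 known before the choice was that of replicate 3. Earlier results of these data were also known, so replicates 1 and 2 are not independent of the choice. In replicates 1 and 2 alone, HIF-KD minus Scrambled was 0.37 for GSTA1 (limma SE 0.21, n = 2 per group, adjusted p = 0.715) and 0.43 for GSTA2 (SE 0.19, adjusted p = 0.710), so neither passed the test against the replicate error. Before adjustment, limma's p was 0.119 for GSTA1 and 0.0524 for GSTA2. The GSTA2 values include the dim Scrambled signal of replicate 1 (4.37). The fit had 1 residual degree of freedom per probe and 7.15 prior degrees of freedom. With adjustment over all tested probes, this test could show large differences only.

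The 4 probes found on HumanHT-12 alone gave nearly the same difference in replicate 3 as the 2 shared probes. For GSTA1, ILMN_3251497 read 8.73, 9.86 and 9.64 on the HIF-KD arrays, against 10.28 and 10.57 on the Scrambled arrays, a difference of -1.01. ILMN_1701831 read 7.96, 8.98 and 8.65 on the HIF-KD arrays, against 9.22 and 9.71 on the Scrambled arrays (-0.94). All HIF-KD arrays were below both Scrambled arrays for these probes. For GSTA2, ILMN_1655613 read 7.82, 8.90 and 8.70 on the HIF-KD arrays, against 9.29 and 9.70 on the Scrambled arrays (-1.02). ILMN_3251540 read 5.37, 6.27 and 6.16 on the HIF-KD arrays, against 6.89 and 7.21 on the Scrambled arrays (-1.11). The 6 differences of both genes thus lay between -0.94 and -1.11, a signal 1.92-fold to 2.16-fold lower in HIF-KD cells, while the shared probes had the opposite sign in replicates 1 and 2. What the HumanHT-12 probes would have read in replicates 1 and 2 was not measured. The lower signal that they show is that of 1 biological replicate, and its technical arrays give no test of the groups.

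**Figure D2:**
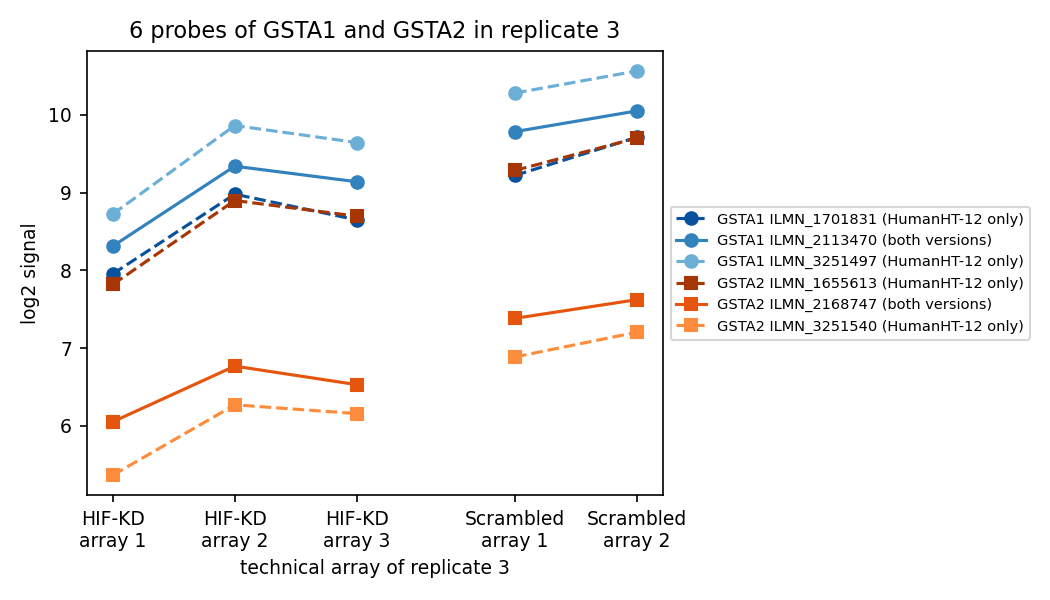
Log2 signal (vertical axis) of 3 GSTA1 and 3 GSTA2 probes on the 3 HIF-KD and 2 Scrambled technical arrays of replicate 3 (horizontal axis). Solid lines are probes of both array versions, dashed lines are probes of HumanHT-12 alone, lines only join the arrays of a group, and heights of different probes are not comparable. Each probe is lowest on HIF-KD array 1 and highest on Scrambled array 2.

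The technical arrays of replicate 3 were not alike for these genes. All 6 probes had 1 order, with HIF-KD array 1 lowest, then HIF-KD arrays 3 and 2 and Scrambled arrays 1 and 2. Of the 14448 HumanHT-12 probes detected on all 5 arrays, 1.65% shared it. The order was taken from these probes, their low HIF-KD signal in replicate 3 was known at the choice, and they may bind each other's transcripts. Nothing is read from this share. HIF-KD array 1 was below the mean of HIF-KD arrays 2 and 3 by at least 0.60 (GSTA2 ILMN_2168747, -0.60) and at most 1.03 (GSTA1 ILMN_3251497, -1.03), where the median of all those probes was -0.0016. The technical SD of the shared GSTA1 probe over the 3 HIF-KD arrays was 0.54, larger than in 99.3% of the tested probes, whose median was 0.14. HIF1A itself was also lowest on HIF-KD array 1. Its probe ILMN_2379788 read 4.87, 5.81 and 5.91 on the HIF-KD arrays, against 7.16 and 7.58 on the Scrambled arrays. The HIF1A probe ILMN_1763260 read 5.50, 6.25 and 6.11 on the HIF-KD arrays, against 7.67 and 8.27 on the Scrambled arrays. This probe and the HIF1A probe ILMN_1681283 had the same order of arrays as the 6 probes of GSTA1 and GSTA2. The part of HIF-KD array 1 in the GSTA1 and GSTA2 values was not tested. HIF-KD arrays 2 and 3 were below both Scrambled arrays for all 6 probes, and without array 1 the difference was -0.68 for the shared GSTA1 probe, -0.85 for the shared GSTA2 probe and -0.71 on average over the 4 others, an alternative added after seeing the data.

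GSTA4, an alpha-class enzyme with high activity toward 4-hydroxynonenal, a product of lipid peroxidation, did not follow GSTA1 and GSTA2. Its probe (ILMN_1771964) read 6.87, 7.10 and 7.61 in HIF-KD cells, against 6.87, 7.31 and 7.68 in Scrambled cells, so that the levels of the groups nearly coincided. The differences were -0.0059, -0.21 and -0.07 (mean -0.09, SE 0.12). GSTA4 was the 1 transferase probe of 13 below Scrambled in all 3 replicates, against 16.9% of all tested probes.

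GSTP1, the pi-class enzyme, differed between groups mainly in replicate 1. It read 12.23, 12.57 and 11.37 in HIF-KD cells, against 11.55, 12.75 and 11.37 in Scrambled cells. The differences were 0.68, -0.18 and 0.00047 (mean 0.17, SE 0.18), so that HIF-KD was above, below and level with Scrambled.

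Mu-class enzymes also conjugate a wide range of electrophiles, and the genes of this class lie side by side on chromosome 1 in the order GSTM4, GSTM2, GSTM1, GSTM5 and GSTM3. GSTM3 (ILMN_1736184) read 7.12, 7.40 and 6.30 in HIF-KD cells, against 7.33, 7.28 and 6.46 in Scrambled cells. Its differences of -0.21, 0.12 and -0.16 had no common sign (mean -0.08, SE 0.13). The probes of GSTM4 disagreed with each other. ILMN_1716979 read 7.54, 7.34 and 8.33 in HIF-KD cells, against 6.95, 7.15 and 7.67 in Scrambled cells, with differences of 0.59, 0.19 and 0.66 (mean 0.48, SE 0.14). ILMN_1651800 read 6.86, 7.17 and 5.82 in HIF-KD cells, against 6.38, 7.13 and 5.97 in Scrambled cells, with differences of 0.48, 0.04 and -0.15 (mean 0.12, SE 0.15). In replicate 3 the Scrambled arrays read 7.15 and 8.19 on ILMN_1716979, a technical SD of 0.74, so the difference there rests on 1 of those arrays. Mu-class genes are similar in sequence, and the signals of GSTM4 may include transcripts of its neighbors.

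GSTO1, an omega-class enzyme with thioltransferase and dehydroascorbate reductase activity, was above Scrambled by a similar amount in all 3 replicates. Its shared probe (ILMN_2227573) read 11.99, 11.63 and 11.21 in HIF-KD cells, against 11.48, 11.30 and 10.85 in Scrambled cells. HIF-KD cells were above Scrambled cells by 0.52, 0.32 and 0.36 (mean 0.40, SE 0.12), a 1.32-fold higher signal. In replicate 3 the HIF-KD arrays read 11.26, 11.17 and 11.21, above both Scrambled arrays at 10.93 and 10.77. The GSTO1 probe of HumanHT-12 alone (ILMN_1808196) read 10.81, 10.63 and 10.55 on the HIF-KD arrays, against 10.39 and 10.27 on the Scrambled arrays (0.33). The difference did not pass the adjusted test. Over replicates 1 and 2 alone it was 0.42 (SE 0.19, n = 2 per group, limma adjusted p = 0.710).

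Among HumanHT-12 probes detected on all arrays of replicate 3, 18 were transferase probes. All HIF-KD arrays were below both Scrambled arrays for 6 of them, against 13.0% of all such probes, and these 6 are the probes of GSTA1 and GSTA2. The choice of the genes used 4 of these probes in this replicate, so nothing is read from this count. All HIF-KD arrays were above both Scrambled arrays for 2, against 12.2%, and these are the probes of GSTO1. Probes of a gene, and the genes GSTA1 and GSTA2, share their target or much of it, so these counts are not counts of independent events.

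GSTK1, the mitochondrial and peroxisomal kappa enzyme, read 10.35, 10.54 and 9.71 in HIF-KD cells, against 9.66, 10.36 and 9.75 in Scrambled cells. The differences were 0.69, 0.18 and -0.03 (mean 0.28, SE 0.16).

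The microsomal enzymes MGST1 and MGST3 resembled GSTK1, with the largest difference in replicate 1 and almost none in replicate 3. MGST2, a microsomal enzyme outside the 10 genes, differed by 0.68, 0.12 and -0.37. MGST1, which conjugates and reduces lipid hydroperoxides in the endoplasmic reticulum and outer mitochondrial membrane, had 3 detected probes. The brightest (ILMN_2355168) read 9.72, 10.02 and 9.41 in HIF-KD cells, against 9.07, 9.79 and 9.41 in Scrambled cells, with differences of 0.65, 0.24 and 0.0048 (mean 0.30, SE 0.16). ILMN_1781952 had differences of 0.77, 0.34 and 0.0065, and ILMN_1803033 of 0.64, 0.37 and 0.08, so the 3 probes had 1 order of replicates. The undetected probe ILMN_1687387 lay between 4.09 and 4.27 in all samples. MGST3 (ILMN_1751956), which has peroxidase and leukotriene C4 synthase activity, read 11.62, 12.21 and 11.17 in HIF-KD cells, against 10.91, 12.21 and 11.19 in Scrambled cells. The differences were 0.71, -0.0034 and -0.02 (mean 0.23, SE 0.17), so that only replicate 1 separated the groups.

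**Figure D3:**
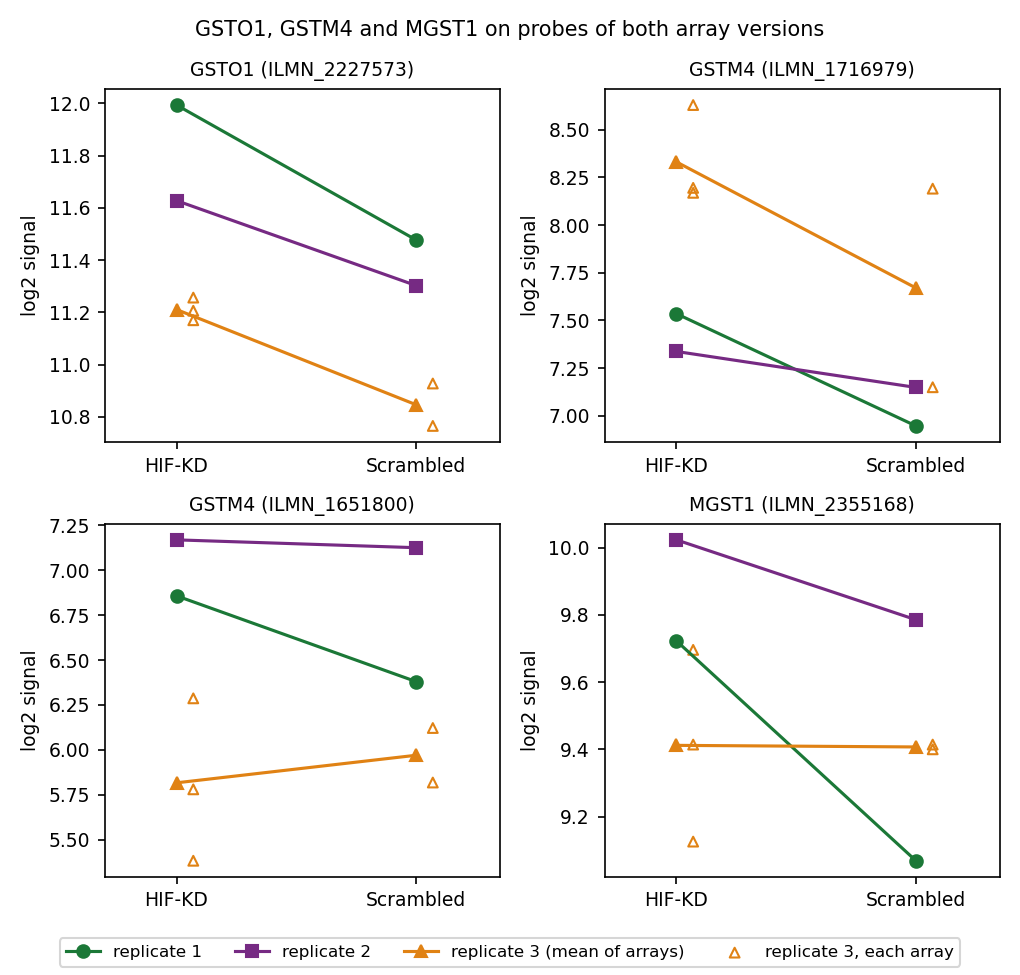
Log2 signal (vertical axis) of GSTO1, of both GSTM4 probes and of the brightest MGST1 probe in HIF-KD and Scrambled cells (horizontal axis), with a line for each biological replicate and open triangles for the technical arrays of replicate 3. The 3 GSTO1 lines are close to parallel, whereas the GSTM4 probes part in replicate 3 and MGST1 reads 9.41 in both groups there.

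By replicate, the transferase probes lay above 0 in replicate 1 more than elsewhere. In replicate 1, 11 of the 13 probes were higher in HIF-KD cells, against 47.1% of all tested probes, with a median difference of 0.64, against -0.021 over all tested probes and -0.05 over the 3672 brightest of them. In replicate 2 it was 10 of 13, against 49.8%, with a median of 0.18, against -0.00030 over all tested probes. In replicate 3 it was 6 of 13 (4 to 6 over the ways of scaling), against 48.9%, with a median of -0.02, against -0.0040 over all tested probes. HIF-KD was above Scrambled in all 3 replicates for 5 of the 13 probes, against 14.6% of all tested probes, namely GSTO1, GSTM4 ILMN_1716979 and the 3 detected MGST1 probes. With all arrays normalized together 3 of the 13 were. With the first technical array only 2 were, where the MGST1 differences of replicate 3 were -0.30, -0.26 and -0.29. The probes of MGST1 share a target.

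**Figure D4:**
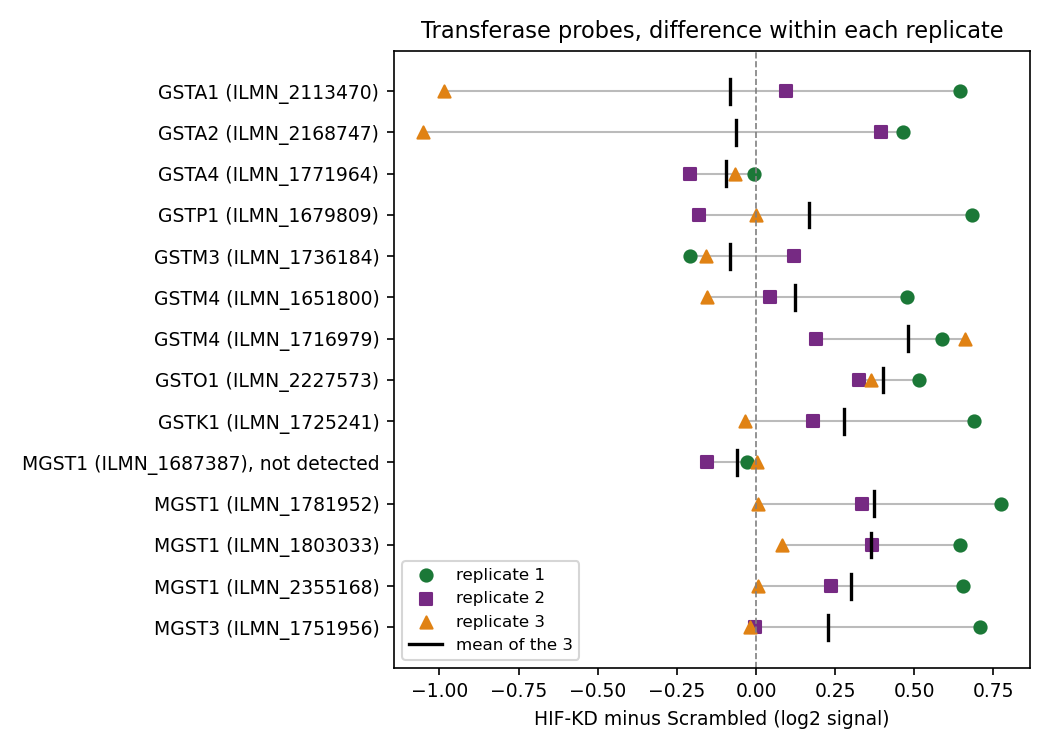
HIF-KD minus Scrambled in log2 signal (horizontal axis) for the 14 shared transferase probes (vertical axis), with a point for each biological replicate and a black bar at their mean. In replicate 1, 11 of the 13 tested probes lie between 0.46 and 0.77, and in replicate 3 the GSTA1 and GSTA2 points lie at -0.99 and -1.05, apart from the rest.

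Antioxidant response cores (TGACNNNGC) were found before the starts of 3 of the 10 genes, GSTA4, GSTP1 and GSTO1, against 10.9% of all promoter windows. The match of GSTA4 ends at the last base of its window and is ccgggaccgcTGACCTGGC (chr6:52995285-52995303, minus strand), with the match in capitals after 10 bases. The matches of GSTP1 and GSTO1 are shown in the same way with 10 bases on either side, from the plus strand of GRCh38.p14.
GSTP1, chr11:67583736-67583764: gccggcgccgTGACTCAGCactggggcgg
GSTO1, chr10:104254656-104254684: ggcggagggaTGACTGAGCatttataact
GSTO1, chr10:104254721-104254749: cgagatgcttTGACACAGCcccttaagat
The A form of the hypoxia response core was found for MGST1, against 18.5% of all windows. Its G form was found for GSTM3, GSTM4 and MGST3, against 32.2%. The counts are of genes and the shares are of windows, of which a gene may have more than 1, so nothing is read from them. A match is a description of these letters and not a binding site.

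The other genes around the transferases were read from lists, each gene by its brightest probe, and 0 genes of any list passed limma's adjusted test. At an unadjusted p under 0.05, 5 of the 68 genes tested were higher in HIF-KD cells (CLIC3, GLRX2, AHR, CDX2 and CEBPA), against 3.43% of all tested probes, and 3 were lower (LAP3, FOXA2 and GATA4), against 3.89%. Of 14 other transferases and relatives tested, 6 were above Scrambled in all 3 replicates (14.6% of all tested probes were) and 0 below (16.9%), with a median difference of 0.10, against -0.0053 over all tested probes. CLIC3, a chloride channel protein with a transferase fold, differed by 1.16, 0.22 and 0.52 (mean 0.63, SE 0.19, adjusted p = 0.492). GSTZ1, a tyrosine breakdown enzyme of the zeta class, had a mean difference of 0.32 (adjusted p = 0.691), and GSTO2, the omega-class neighbor of GSTO1 on chromosome 10, of 0.31 (adjusted p = 0.713). GSTA5, the next gene to GSTA1, was looked at after its values were seen. It read 4.19, 4.21 and 4.86 in HIF-KD cells, against 4.16, 4.13 and 5.67 in Scrambled cells. Its differences of 0.03, 0.07 and -0.80 had the order of those of GSTA1, but the probe was detected on only 4 arrays and may bind GSTA1 or GSTA2 transcripts.

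Of 24 genes of glutathione supply and recycling tested, 2 were above and 2 below Scrambled in all 3 replicates, against the same 14.6% and 16.9% of all tested probes, and the median difference was 0.05. GLRX2, a mitochondrial glutaredoxin, differed by 0.82, 0.61 and 0.33 (mean 0.59, SE 0.14, adjusted p = 0.349). GLO1, which clears methylglyoxal with glutathione, averaged -0.25 (adjusted p = 0.713), and PRDX6, a peroxiredoxin that is recharged through GSTP1, averaged -0.19 (adjusted p = 0.714). Of 11 genes of conjugate export and mercapturate formation tested, 3 were above and 2 below in all 3 replicates (14.6% and 16.9% of all tested probes), with a median of -0.03. LAP3, a leucine aminopeptidase, averaged -0.35 (adjusted p = 0.615), ABCC3, an export pump of glutathione conjugates, 0.19 (adjusted p = 0.714) and ACY1, which hydrolyses mercapturates, 0.18 (adjusted p = 0.722).

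The last list was of transcription factors known to act on transferase genes, with KEAP1, which is not itself a transcription factor. Of its 19 genes tested, 6 were above and 5 below Scrambled in all 3 replicates, against 14.6% and 16.9% of all tested probes, with a median of -0.05. AHR, the dioxin receptor, differed by 0.00059, 0.78 and 0.77 (mean 0.52, SE 0.18, adjusted p = 0.590). CEBPA differed by 0.69, 0.51 and 0.23 (mean 0.48, adjusted p = 0.469), and GATA4, a factor of the gastric and intestinal epithelium, by -0.34, -0.37 and -0.39 (mean -0.37, SE 0.12, adjusted p = 0.538).

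The genes most like GSTA1 and GSTA2 were found by the distance between their 3 within-replicate differences, over 9655 probes of other named genes. IDH2, the mitochondrial NADP-dependent isocitrate dehydrogenase, was nearest to GSTA1, at a distance of 0.19 log2 units. It differed by 0.50, 0.03 and -0.88. GSTA2 followed at 0.36, COX7B, a subunit of cytochrome c oxidase, at 0.41, HSPE1, a mitochondrial chaperonin, at 0.45 and MSMB, a secreted protein of prostate and gastric mucosa, at 0.46. Nearest to GSTA2 were MSMB at 0.27, GSTA1 at 0.36, IDH2 at 0.41, AHCYL2 at 0.47 and SESN1 at 0.50. The MSMB probe nearest to GSTA2 read 5.03, 5.32 and 6.12 in HIF-KD cells, against 4.66, 4.90 and 7.42 in Scrambled cells. Distances over 3 values are a description, and the genes share the arrays on which they were read.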

How the data were processed

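Total RNA of AGS HIF-KD and Scrambled cells was labelled with biotin and hybridized to BeadChips. The tables that the authors call non-normalized hold, for each probe and array, a deposited log2 signal with a distribution of its own per array. Beside it stands the deposited detection p-value. The processed log2 values of the authors have equal distributions within a replicate. Per the study's methods, RMA and the beadarray package were used. Their versions and the background step are not given in the sources used here. The tests had been chosen for linear signals, so the deposited log2 values were first taken back to that scale.

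The background was corrected with nec of limma 3.58.1 in R 4.3.3 (offset 16, detection p-values), quantile normalization was run separately for each array version, log2 was taken and technical arrays were averaged. Of 24525 shared probes, 9839 lay under the array median in each of the 6 averaged samples and were dropped, which left 14686. HIF-KD was compared with Scrambled over all of these, every probe on its own, by lmFit and eBayes with no trend and the replicate as a block (2 residual and 5.24 prior degrees of freedom), with Benjamini-Hochberg adjustment at 0.05. The block follows the study's comparison of sample with control within each experiment. Same-numbered samples deviated together from the group means (r = 0.623, 0.798 and 0.846 over probes), which a shared array version could also give. The closest arrays had a Spearman correlation of 0.970 in replicates 1 and 2 and of 0.899 in replicate 3, so none was a duplicate. Precision is limited by the number of arrays and by dim probes, and p-values measure the spread between 3 replicates of 1 pair of transduced lines.

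Probes were named from the platform annotation, with 22317 of the shared probes carrying 1 symbol and 2208 none. Promoter sequences are RefSeq's on GRCh38.p14. Named genes were the 10 transferases with every probe, HIF1A, from each list the genes past the test or else the 3 with the largest mean difference among those of 1 sign in all replicates and detected on all 9 arrays, and the 5 genes nearest to GSTA1 and to GSTA2. The transferases, lists and rules were chosen with earlier results of these data known, so the differences of the transferases are descriptions. The fitting step was tested on simulated data. The alternatives were no background correction, a nec offset of 50, median scaling, all arrays normalized together and the processed values. Others were a filter on detection or none, the brightest probe of each gene and the first technical array only. The fit was also run with no block and with each replicate left out, and an unpaired t-test was run. The study names that t-test for its statistics in general. Its array genes were called by a rule on z-values, which was not run here.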

Additional observations from a re-analysis of the deposited data

How the results depend on the processing

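No transferase probe was called under any of the alternatives. The 6 settings that change the signals gave 78 mean differences of the 13 tested transferase probes, all within 1 SD over the replicates of the value reported, and 1 turned in sign (GSTM4 ILMN_1651800, -0.07 with the first technical array only, against 0.12). With 1 replicate left out, 5 of 39 turned in sign. Without replicate 1 the mean was -0.09 for GSTP1 (against 0.17), -0.01 for MGST3 (against 0.23) and -0.05 for GSTM4 ILMN_1651800. Without replicate 3 it was 0.37 for GSTA1 (against -0.08) and 0.43 for GSTA2 (against -0.06). The number of called probes over all 14686 varied more. It was 16, and it was 1 with an offset of 50, 54 with scaling to a common median and 28 with all arrays normalized together. The count was 0 with no filter (more probes tested), 10 with the first technical array only and 0 by an unpaired t-test after adjustment. Without the replicate block and with the array version as covariate it was 2. With 1 replicate left out it lay between 0 and 11, at 0 without replicate 1, 11 without replicate 2 and 5 without replicate 3. At an unadjusted p under 0.05 the unpaired t-test called 139 probes and 0 transferase probes, against 1075 and 3 by limma. The cause of these shifts was not tested. The mean of the 4 probes of GSTA1 and GSTA2 on HumanHT-12 alone was -1.02, lay between -0.90 and -0.99 under 4 other scalings and was -1.45 with the first technical array of each group and -0.71 without HIF-KD array 1 (added after seeing the data). The dim GSTA2 probe of both versions was detected on 8 of 9 arrays, and its difference in replicate 1 was 0.46, 0.19 with an offset of 50 and 0.72 with scaling to a common median.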

Other observations

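On HIF-KD array 1 of replicate 3, on which GSTA1 and GSTA2 were lowest, other genes were low as well. Among the 14448 HumanHT-12 probes detected on all 5 arrays, those furthest below the mean of HIF-KD arrays 2 and 3 were of S100A4, a calcium-binding protein (-1.79), APOA2, an apolipoprotein (-1.68), MSMB (-1.64 and -1.62), BST2, an interferon-induced membrane protein (-1.54), RNASE1, a secreted ribonuclease (-1.37), and CLDN2, a tight junction protein (-1.33). A GSTA1 probe had rank 17, a HIF1A probe rank 22 (-0.99) and a GSTA2 probe rank 25. RNASE1 ILMN_2333670 read 5.10, 6.73 and 6.22 on the HIF-KD arrays, against 7.07 and 7.58 on the Scrambled arrays, whereas BST2 read 6.03, 7.38 and 7.76 on the HIF-KD arrays, against 5.33 and 5.63 on the Scrambled arrays. These genes were chosen after their values were seen.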
